A study of Mus musculus with 30 samples.

Results

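The mRNAs of 9 transcription factors of the AP-1 group were followed in mouse dendritic cells that had been grown from marrow (BMDCs): Fos, Fosb, Fosl1 and Fosl2 of the Fos family, Jun, Junb and Jund of the Jun family, and their dimerisation partners Atf3 and Maff. The members were chosen by gene symbol, and each of the 9 symbols matched 1 of the 25611 genes in the count table and passed the filter on low counts that left 14808 genes. The cells were differentiated for 6 to 7 days with FLT3L at 200 ng/ml and came from mice of 2 genotypes, Rubcn KO and Rubcn WT (KO and WT below). Rubcn encodes Rubicon, a protein needed for LC3-associated phagocytosis, a non-canonical use of the autophagy machinery on vesicles that carry engulfed material. Cells of each genotype were left untreated, or were given OVA protein or apoptotic Jurkat cells. RNA of the treated cells was taken after 30 min and after 4 h. The labels give no time for the untreated cells, and the same untreated libraries of a genotype serve for both times. Comparisons with untreated cells therefore cannot tell a treatment apart from handling or time in culture. Jurkat is a line of human leukaemic T cells, so the added cells carry human RNA. With 3 libraries in each of the 10 groups there are 30 in all. The sources used here do not give the strain, sex or age of the mice, the KO allele, the OVA dose or the ratio of Jurkat cells to dendritic cells. The labels do not say whether the 3 libraries of a group came from separate mice or cultures, so the p-values measure the spread between these libraries, which may be technical.

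AP-1 is a family of dimers built from basic leucine zipper proteins. Fos proteins cannot pair with each other and need a Jun partner, Jun proteins also pair among themselves, and Atf3 and the small Maf protein Maff, which lacks an activation domain of its own, pair with several of these factors. Many of these genes are immediate early genes: their transcription starts within minutes of a stimulus, through kinases that act on factors already present, and needs no new protein. In dendritic cells AP-1 dimers take part in cytokine induction, and Atf3 is known for restraining inflammatory genes after Toll-like receptor signals.

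Library totals ran from 9734778 to 51642601 counts. The shallowest library is replicate 3 of KO cells with OVA for 30 min, and the next lowest total is 38680894 counts. Replicate 2 of KO cells with 4 h of Jurkat cells stood furthest from its group. By a chi-square of the counts per degree of freedom, it differed from replicates 1 and 3 by 129 and 134. Replicates 1 and 3 differed by 4.97, and libraries within the other groups by 2.28 to 16.6. Rubcn mRNA in the KO libraries stood at 73.6% to 84.7% of the WT mean and did not overlap the WT range in any of the 5 conditions. Which exons the KO allele removes is not stated in the labels, so gene-level counts do not show whether the remaining transcript is intact. All 10 markers of conventional dendritic cells were above 1 CPM (the gene count relative to the library size after TMM scaling) in every group, with summed levels of 16781 to 30140 CPM. Cd74 (9258 CPM) and H2-Ab1 (4489 CPM) made up most of that sum in untreated WT cells. The 10 markers of monocytes or macrophages were also above 1 CPM in every group, with sums of 3158 to 4327 CPM. The 6 libraries with 4 h of Jurkat cells had TMM factors of 0.765 to 0.842, against 1.03 to 1.07 in the others. These are bulk samples, so fewer cells of a type and less RNA per cell cannot be told apart.

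The promoters of Fos, Jun, Atf3 and Maff are shown because these 4 genes rose after Jurkat cells and their upstream sequences hold letters that AP-1 and the related ATF/CREB dimers are known to bind. RefSeq promoter entries (build GRCm38.p6, the assembly called mm10) were found for 8 of the 9 members, with 10 promoters among them. Each line gives the 150 bases just upstream of a RefSeq start site, 5′ to 3′ on the gene's strand. Capitals mark matches, on either strand, to 6 motifs searched in the 250 bases before each start: the AP-1 site TGACTCA, the cyclic AMP response element TGACGTCA, its core TGACGT, the Jun-type site TGACATCA, the TATA box TATAAA and the CArG box, the site of serum response factor. The core lies inside the full cyclic AMP response element, so the 2 matches overlap.
Fos, chr12:85473740-85473889, plus strand: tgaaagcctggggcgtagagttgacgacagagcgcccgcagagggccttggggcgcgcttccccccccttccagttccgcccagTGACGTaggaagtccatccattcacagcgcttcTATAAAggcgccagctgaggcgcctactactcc
Jun, chr4:95052223-95052372, minus strand: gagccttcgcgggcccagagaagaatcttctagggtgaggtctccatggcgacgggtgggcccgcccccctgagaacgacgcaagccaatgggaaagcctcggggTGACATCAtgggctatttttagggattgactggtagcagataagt
Atf3, chr1:191183334-191183483, minus strand: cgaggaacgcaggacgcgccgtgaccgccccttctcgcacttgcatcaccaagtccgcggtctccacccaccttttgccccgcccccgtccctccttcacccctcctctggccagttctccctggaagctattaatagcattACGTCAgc
Maff promoter 2, chr15:79347370-79347519, plus strand: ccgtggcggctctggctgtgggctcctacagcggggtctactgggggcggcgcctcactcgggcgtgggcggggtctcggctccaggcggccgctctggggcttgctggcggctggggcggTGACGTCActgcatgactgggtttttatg
Maff promoter 3, chr15:79348252-79348401, plus strand: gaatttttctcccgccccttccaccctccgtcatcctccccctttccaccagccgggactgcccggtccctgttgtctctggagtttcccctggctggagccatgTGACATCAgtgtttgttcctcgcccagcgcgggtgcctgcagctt
The Fos promoter held the core TGACGT starting 66 bases and TATAAA 33 bases before the start site. The Jun promoter held TGACATCA at 45 bases, and Maff promoter 3 held the same site at the same distance. Maff promoter 2 held the full TGACGTCA at 29 bases, and the Atf3 promoter held the core on the other strand, ACGTCA, at 8 bases. Both of these Maff promoters lie in introns of longer annotated Maff transcripts. Among 32851 mouse promoters of the same length, 6.47% held TGACGT, 1.55% TGACGTCA, 2.93% TGACATCA, 4.46% TGACTCA, 12.4% TATAAA and 1.47% the CArG box. The promoters of Fosb, Fosl2, Junb and Jund and Maff promoter 1 had no match to these letters in this window. Of these genes, Fosb, Junb and Jund were also called higher at 4 h of Jurkat cells, as were 38.9% (WT) and 37.5% (KO) of all genes. Sites further upstream or elsewhere and variants of these letters were not searched. The part of the matches in the rises was not tested. A match describes the sequence and does not show that a factor binds there.

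Levels between genes were compared as CPM per kilobase of annotated exon. In untreated WT cells Junb (95.1) and Jund (83.8) stood highest on this scale, followed by Fos at 33.3, Atf3 at 23.5 and Jun at 19.6. Fosl2 at 4.79, Maff at 3.48 and Fosb at 2.36 were lower, and Fosl1 was barely detected at 0.115. After 4 h of Jurkat cells the WT order was Junb at 420.3, Atf3 at 194, Jund at 175, Jun at 75.9, Fos at 48.4 and Maff at 29.6. The plot of levels by library shows the 9 genes on their own CPM axes.

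**Figure D1:**
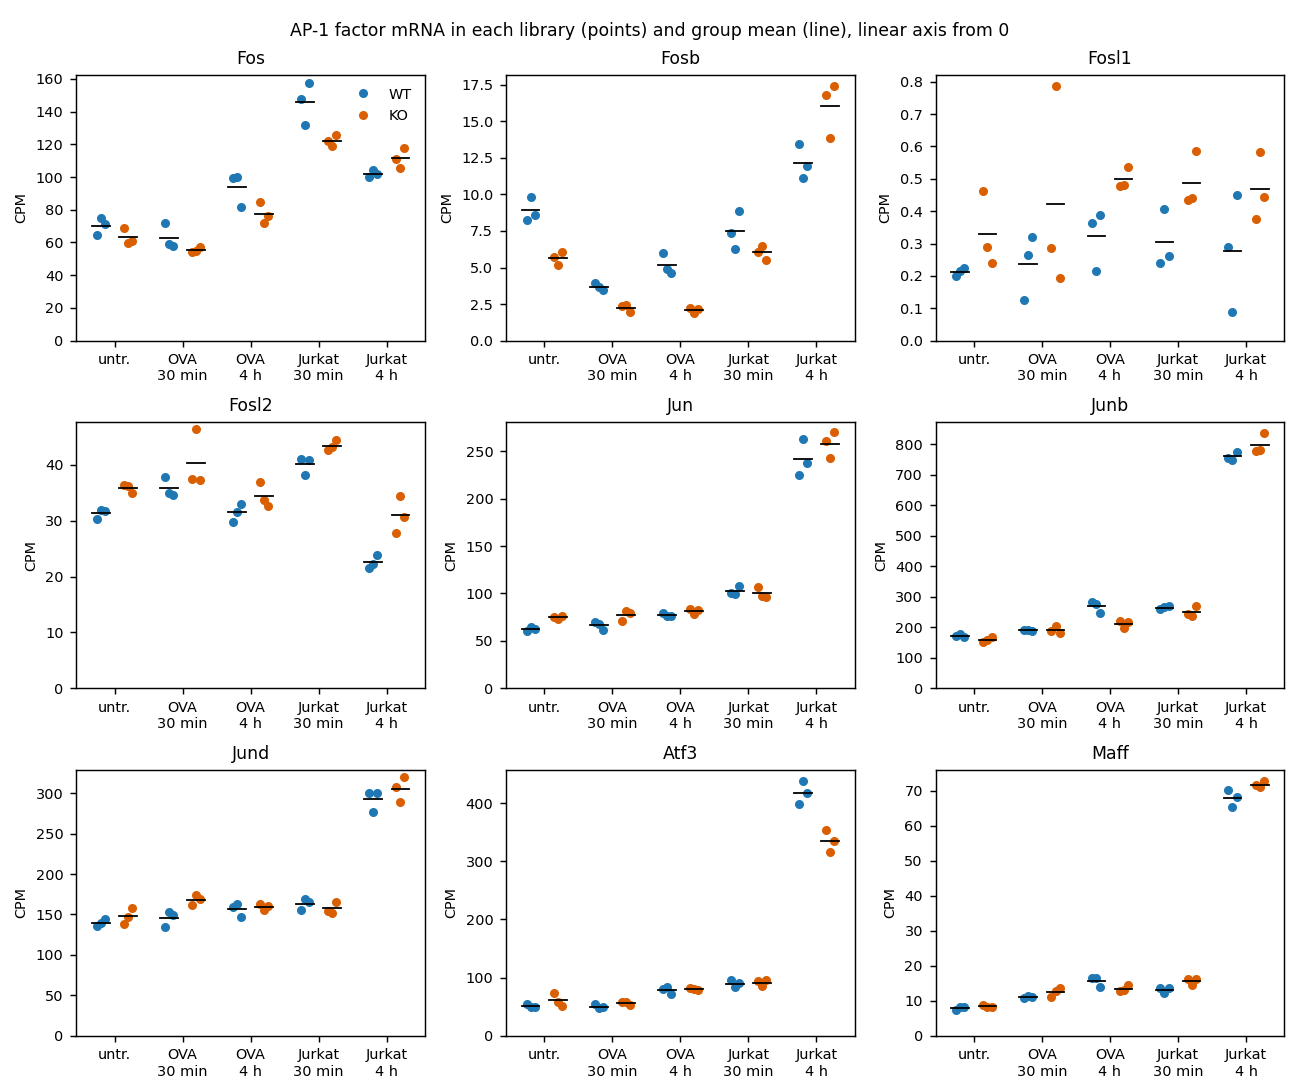
CPM of each of the 9 genes in each of the 30 libraries (points, blue WT and orange KO), with a black line at each group mean of 3 libraries and every vertical axis starting at 0. Fos peaked at 30 min of Jurkat cells (WT 132 to 157 CPM), whereas Jun, Junb, Jund, Atf3 and Maff peaked at 4 h and Fosl2 was lowest there in WT cells (21.5 to 23.8 CPM).

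Fos (chr12:85473901-85477270, plus strand, mm10), the prototype of the Fos family, showed its highest levels 30 min after Jurkat cells. WT libraries went from 64.5, 75 and 71.1 CPM untreated to 148, 132 and 157 CPM at 30 min and 99.7, 104 and 102 CPM at 4 h of Jurkat cells. KO libraries went from 68.6, 59.8 and 60.8 CPM to 122, 119 and 126 CPM and then 111, 105 and 118 CPM. In both genotypes all 3 libraries at 30 min lay above every untreated library and every library at 4 h, and all at 4 h lay above the untreated ones. By edgeR's quasi-likelihood test, with Benjamini-Hochberg adjustment over all genes tested and a threshold of 0.05, the log2 fold change against untreated cells at 30 min was 1.05 ± 0.08 (SE) in WT (adjusted p = 6.85e-11) and 0.95 ± 0.08 in KO (7.67e-10). From 30 min to 4 h of Jurkat cells Fos fell in WT (-0.51 ± 0.08, adjusted p = 1.16e-06), and in KO the change was -0.13 (interval of 2 SE from -0.292 to 0.025, adjusted p = 0.127). OVA gave another order: at 30 min Fos did not pass in either genotype (-0.16 in WT and -0.20 in KO), and at 4 h it was higher, at 99.6, 100 and 81.8 CPM in WT (0.42 ± 0.08, adjusted p = 0.000287) and 84.8, 71.6 and 76.4 CPM in KO (0.30 ± 0.08, 0.0136). The rise in KO did not pass without replicate 1 of the OVA libraries or replicate 2 or 3 of the untreated ones (0.23 to 0.28, adjusted p from 0.0621 to 0.12).

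Fosb (chr7:19302696-19310045, minus strand), which makes a full-length activator and a shorter form by splicing, was lower after OVA and higher after 4 h of Jurkat cells than in untreated cells. Untreated WT libraries held 8.28, 9.85 and 8.61 CPM, and 30 min of OVA left 3.93, 3.65 and 3.49 CPM. In KO cells 5.73, 5.2 and 6.07 CPM went to 2.38, 2.45 and 1.93 CPM. The ranges did not overlap in either genotype, and the log2 fold changes were -1.27 ± 0.12 in WT (adjusted p = 2.35e-08) and -1.27 ± 0.14 in KO (2.17e-06). At 4 h of OVA the WT libraries stood at 5.97, 4.9 and 4.61 CPM, higher than at 30 min (0.48 ± 0.13, adjusted p = 0.00489), while the KO libraries stood at 2.22, 1.9 and 2.15 CPM, a change of -0.17 from 30 min with an interval from -0.498 to 0.167. Both groups lay below their untreated cells at 4 h of OVA, with log2 fold changes of -0.79 ± 0.115 in WT (adjusted p = 5.73e-06) and -1.43 ± 0.14 in KO (1.4e-08). Jurkat cells for 30 min left Fosb at 7.4, 6.3 and 8.9 CPM in WT and 6.07, 6.5 and 5.54 CPM in KO, and neither change from untreated cells passed (-0.24, adjusted p = 0.108, and 0.09, adjusted p = 0.67). Without WT Jurkat 30 min replicate 3 the WT value was -0.39 and passed (adjusted p = 0.0125). Fosb was highest at 4 h of Jurkat cells, with 13.4, 11.1 and 12 CPM in WT (0.45 ± 0.11 against untreated, adjusted p = 0.00044) and 16.8, 13.8 and 17.4 CPM in KO (1.50 ± 0.11, 3.72e-13). All 6 of these libraries lay above every other library of the series.

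Fosl2 (chr5:32136472-32157839, plus strand), whose protein Fra-2 is a more slowly changing Fos relative, and Fosl1 (chr19:5447698-5455938, plus strand), which encodes Fra-1, had smaller or no called changes. Fosl2 was 30.4, 31.9 and 31.8 CPM in untreated WT cells, rose to 41.1, 38.3 and 40.9 CPM at 30 min of Jurkat cells (0.36 ± 0.07, adjusted p = 0.000258) and was 21.5, 22.3 and 23.8 CPM at 4 h (-0.48 ± 0.07, 9.49e-07). It was the only member called lower at 4 h of Jurkat cells. In KO cells Fosl2 was 36.5, 36.2 and 34.9 CPM untreated, 42.6, 43.3 and 44.4 CPM at 30 min (0.28 ± 0.07, adjusted p = 0.00483) and 27.9, 34.5 and 30.7 CPM at 4 h (-0.21 ± 0.07, 0.00777). The KO fall at 4 h did not pass without KO Jurkat 4 h replicate 1 (-0.14, adjusted p = 0.0792), nor with DESeq2, DESeq2's size factors or a stricter filter on low counts (-0.15 in each, adjusted p from 0.0545 to 0.0561). OVA did not move Fosl2 past the test at either time in either genotype, although its WT value at 30 min passed without the 4 h Jurkat libraries in the fit (0.20, adjusted p = 0.048). Fosl1 had 2 to 36 counts per library, 0.0897 to 0.787 CPM, and passed in none of the 26 comparisons. Its gene overlaps Ccdc85b on the other strand by 2776 bases in the count table's own annotation, and reads of the 2 genes cannot be told apart without strand.

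The Jun family showed a smaller early change and a larger late one. Jun (chr4:95049036-95052222, minus strand), the strongest transactivator of its family, was 60.8, 64.6 and 62.4 CPM in untreated WT cells, 100.2, 98.9 and 108 CPM at 30 min and 225, 264 and 238 CPM at 4 h of Jurkat cells. Its KO libraries held 75.4, 72.9 and 76.5 CPM, then 107, 97.7 and 96.3 CPM, then 261, 243 and 271 CPM. No 2 of these 3 stages overlapped within a genotype. The log2 fold changes against untreated cells were 0.71 ± 0.06 in WT and 0.42 ± 0.06 in KO at 30 min (adjusted p = 2.9e-10 and 5.91e-06), and 1.95 ± 0.06 and 1.78 ± 0.06 at 4 h (1.85e-22 and 1.27e-21). With OVA, Jun passed in WT at 4 h alone, at 79, 75.9 and 75.8 CPM (0.30 ± 0.06, adjusted p = 0.00035), and the KO value at 4 h was 0.12 with an interval from 0.004 to 0.236 (adjusted p = 0.201). The gene Junos lies antisense to Jun over 689 bases and Gm11175 antisense to Jund over 919 bases in GENCODE, and whether the counting used strand is not given in the sources used here.

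Junb (chr8:84976909-84978748, minus strand), a Jun relative that can damp Jun activity, had the highest level per kilobase in every group except untreated KO cells, where Jund was highest at 88.6. WT libraries held 171, 176 and 169 CPM untreated, 282, 276 and 246 CPM at 4 h of OVA, 259, 266 and 268 CPM at 30 min of Jurkat cells and 756, 749.6 and 776 CPM at 4 h of Jurkat cells. KO libraries held 151, 159 and 166 CPM untreated, 219.8, 197 and 219 CPM at 4 h of OVA, 242, 236 and 268 CPM at 30 min of Jurkat cells and 777, 781 and 839 CPM at 4 h of Jurkat cells. Every treated range named here lay above the untreated range of its genotype. The log2 fold changes were 0.64, 0.62 and 2.14 in WT and 0.42, 0.65 and 2.33 in KO (SE 0.05 to 0.06), and all 6 passed. OVA for 30 min gave 0.26 ± 0.06 in KO (adjusted p = 0.00484), which did not pass without KO OVA 30 min replicate 2 (0.21, adjusted p = 0.0793), and 0.14 in WT (adjusted p = 0.109).

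Jund (chr8:70697739-70700616, plus strand), known as the constitutively expressed Jun, changed little except at 4 h of Jurkat cells. It was 136, 139 and 144 CPM in untreated WT libraries and 300.3, 277 and 300.1 CPM at 4 h of Jurkat cells (1.07 ± 0.05, adjusted p = 5.15e-17), and 139, 147 and 158 CPM against 308, 289 and 320.1 CPM in KO (1.05 ± 0.05, 8.06e-17). The other 8 groups spanned 135 to 175 CPM, and each overlapped its neighbour in the order of their means. Jund was also called higher at 30 min of Jurkat cells in WT (0.23 ± 0.05, adjusted p = 0.00225), at 4 h of OVA in WT (0.16 ± 0.05, 0.028) and at 30 min of OVA in KO (0.19 ± 0.05, 0.0476). The WT OVA call did not pass without replicate 1 or 2 of either group (0.13 to 0.16, adjusted p from 0.073 to 0.129) or with total counts in place of TMM (0.15, 0.0588). The KO OVA call did not pass without KO OVA 30 min replicate 2 or 3 or KO untreated replicate 1 or 2 (0.14 to 0.19, adjusted p from 0.121 to 0.258), nor with total counts, no filter or only the compared groups in the fit (0.18 to 0.19, 0.0517 to 0.0745).

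Atf3 (chr1:191170297-191183333, minus strand) and Maff (chr15:79346621-79359076, plus strand) had the largest changes of the 9 members at 4 h of Jurkat cells. Atf3 was 53.9, 49.4 and 48.8 CPM in untreated WT libraries, 79.9, 83.6 and 71.8 CPM at 4 h of OVA, 95.1, 83 and 90.8 CPM at 30 min of Jurkat cells and 399, 438 and 418 CPM at 4 h. In KO it was 73.6, 58.5 and 51.9 CPM untreated, 82.7, 80.8 and 79.5 CPM at 4 h of OVA, 93.7, 85 and 95.5 CPM at 30 min of Jurkat cells and 354, 316 and 335 CPM at 4 h. Each of these treated ranges lay above the untreated range of its genotype, and the KO and WT ranges at 4 h of Jurkat cells were apart. Against untreated cells the changes were 0.63, 0.82 and 3.05 in WT and 0.40, 0.58 and 2.45 in KO (SE 0.08 to 0.09), all past the test. OVA for 30 min gave -0.02 in WT and -0.12 in KO, and neither passed.

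Maff was the member called higher than in untreated cells after OVA at both times in both genotypes. WT libraries held 7.46, 8.15 and 8.33 CPM untreated, 10.7, 11.4 and 11.1 CPM at 30 min and 16.5, 16.6 and 13.9 CPM at 4 h of OVA. KO libraries held 8.76, 8.31 and 8.28 CPM, then 11.1, 12.8 and 13.5 CPM, then 12.7, 13 and 14.5 CPM. The untreated range was below the treated ones in both genotypes, and the 30 min and 4 h ranges overlapped in KO but not in WT. The log2 fold changes were 0.47 ± 0.07 and 0.97 ± 0.07 in WT and 0.53 ± 0.08 and 0.66 ± 0.07 in KO, with adjusted p from 2.98e-11 to 9.5e-05. With Jurkat cells Maff reached 13.6, 12.3 and 13.5 CPM at 30 min and 70.1, 65.5 and 68.1 CPM at 4 h in WT (0.72 and 3.09), and 16.2, 14.6 and 16.2 CPM and 71.6, 71 and 72.8 CPM in KO (0.89 and 3.09).

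Counted over the members, 30 min of OVA changed 2 of 9 in WT (Maff higher, Fosb lower) where 10.7% of all genes passed and 5.51% passed higher. In KO it changed 4 (Maff, Junb and Jund higher, Fosb lower) where 3.77% passed and 1.88% higher. Without 1 library at a time this KO count ran from 2 to 5, with 2 left without OVA 30 min replicate 2 and 5 without replicate 1, when Fosl2 also passed (0.26, adjusted p = 0.0452). After 4 h of OVA 7 members passed in WT, 6 of them higher, against backgrounds of 23.5% and 11.9% higher, and 5 in KO, 4 of them higher, against 11.6% and 5.94% higher. Jurkat cells for 30 min changed 7 in WT, all higher (28.7% of genes, 14.2% higher), and 6 in KO, all higher (17.0% of genes, 8.72% higher). In each genotype 8 members passed at 4 h of Jurkat cells, 7 higher and Fosl2 lower, but 79.5% of all genes in WT and 78.5% in KO passed there, 38.9% and 37.5% of genes higher. The 8 comparisons share each genotype's untreated libraries. The members' median log2 fold change at 4 h of Jurkat cells was 1.07 in WT and 1.50 in KO, beside medians over all genes of -0.02 and -0.03.

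**Figure D2:**
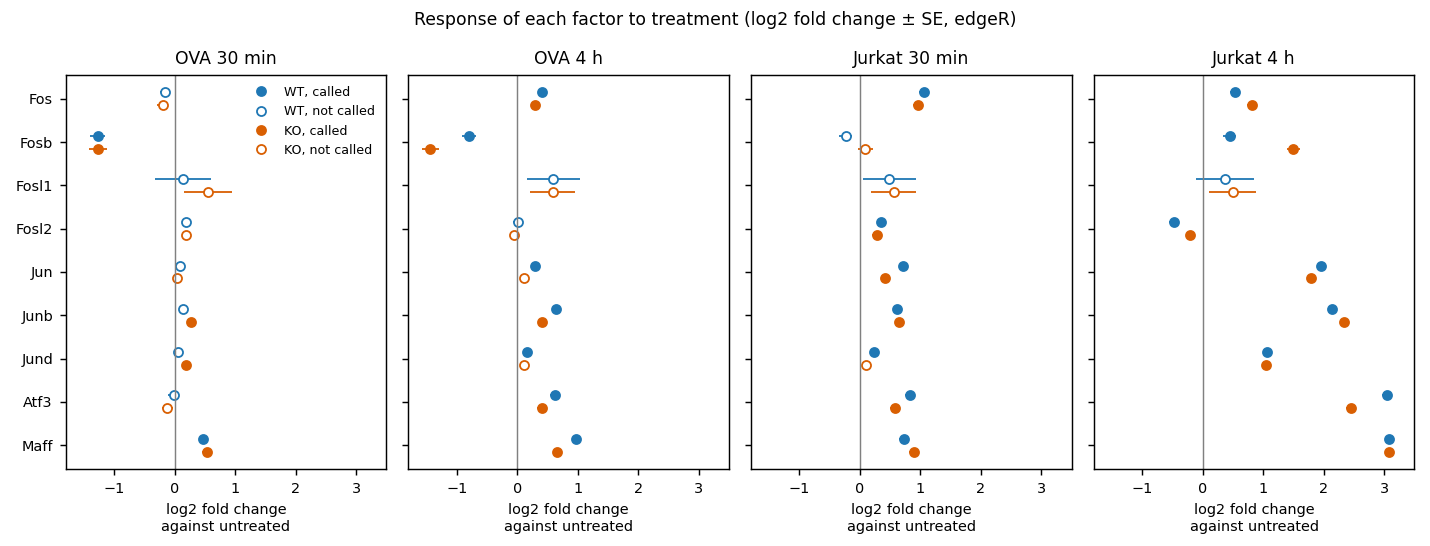
Log2 fold change of each gene against the untreated cells of its genotype (points, bars 1 SE, blue WT and orange KO, filled where the adjusted p was under 0.05), 1 panel per treatment. Fosb is the only filled point left of 0 in both OVA panels, at -1.27 in both genotypes at 30 min, and Fosl2 the only one at 4 h of Jurkat cells.

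The 4 h Jurkat values depend on how library sizes are scaled. With total counts in place of TMM the median over all genes moved to -0.42 in WT and -0.37 in KO, and in WT Fos (0.13, adjusted p = 0.122) and Fosb (0.05, 0.69) no longer passed. The other 6 WT calls and all 8 KO calls stayed past the threshold. The 14 T-lineage markers, which the added Jurkat cells could contribute reads to, also moved with these groups in their sum. The sum was 66.4 to 72.4 CPM in untreated WT cells, 99.5 to 103 CPM at 30 min and 115 to 143 CPM at 4 h of Jurkat cells, and 69.6 to 76.7, 83.8 to 90.7 and 94.6 to 113 CPM in KO. None of the 14 was at 0 in any of these groups, and those under 1 CPM went from 9 in untreated WT cells to 5 and 3, and from 7 in untreated KO cells to 3 and 4. From untreated to 4 h in WT, the means of Lck (2.84 to 43.4 CPM), Zap70 (0.471 to 35.2 CPM) and 8 others were higher. Those of Cd28 (52.9 to 23 CPM), Cd5 (5.89 to 3.74 CPM), Thy1 (0.911 to 0.637 CPM) and Cd3d (0.112 to 0.0387 CPM) were lower. The part of these markers in the members' changes was not tested.

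Within a library the balance between the Fos and Jun families does not depend on library scaling. Summed per kilobase of exon, Fos family mRNA made up 16.1% to 17.7% of the Fos and Jun families in untreated WT cells, 20.1% to 22.9% at 30 min of Jurkat cells and 7.5% to 7.76% at 4 h. In KO the ranges were 14.6% to 17.3%, 19.7% to 20.5% and 8% to 8.13%. The 3 stages did not overlap in either genotype, and at 4 h the KO range lay above the WT range. OVA for 30 min gave 13.6% to 16.5% in WT, which overlapped the untreated range, and 12.3% to 12.9% in KO, which did not. The ratio of Fos to Junb was taken from raw counts, without division by exon length. It was 0.551 ± 0.0494 (SD, n = 3) at 30 min and 0.134 ± 0.00409 at 4 h of Jurkat cells in WT. In KO it was 0.492 ± 0.0203 and 0.139 ± 0.00402. This share was added after the data were seen and is a description.

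**Figure D3:**
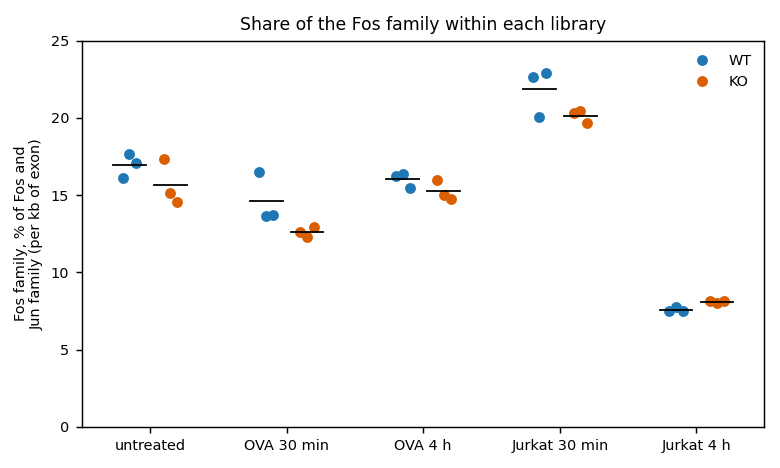
Fos family level as a percentage of the summed Fos and Jun family level, per kilobase of exon, in each library (points, blue WT and orange KO, line at the group mean of 3), with the axis from 0. The share was 19.7% to 22.9% at 30 min of Jurkat cells and 7.5% to 8.13% at 4 h.

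The direct comparison of times separated the members further. From 30 min to 4 h of Jurkat cells 8 members changed in WT, where 78.6% of genes passed: Maff (2.37), Atf3 (2.22), Junb (1.52), Jun (1.24), Jund (0.84) and Fosb (0.69) rose, and Fosl2 (-0.83) and Fos (-0.51) fell. In KO 7 changed, where 77.1% passed, with Fosl2 (-0.49) lower and Fos not past the test. Fos in KO passed with total counts (-0.46, adjusted p = 4.94e-06) and when only the compared groups were fitted (-0.12, 0.0249). From 30 min to 4 h of OVA 7 members changed in WT (29.7% of genes), 6 higher and Fosl2 lower, and 3 in KO (12.8% of genes), with Fos (0.50) and Atf3 (0.52) higher and Fosl2 (-0.25) lower. The OVA falls of Fosl2 were lost without WT OVA replicate 1 or 2 of either time (-0.20 to -0.15, adjusted p from 0.062 to 0.166) and without KO OVA 30 min replicate 2 or KO OVA 4 h replicate 2 or 3 (-0.23 to -0.12, 0.071 to 0.351). The rise of Jun in WT (0.21) was lost without WT OVA 30 min replicate 3 (0.16, adjusted p = 0.0567). Junb in KO (0.15, adjusted p = 0.0684) passed without KO OVA 30 min replicate 2 (0.21, 0.0254) or KO OVA 4 h replicate 2 (0.20, 0.0256).

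Jurkat cells and OVA were also compared at the same time, without the untreated libraries. At 30 min Jurkat cells gave higher levels of 7 members in WT, where 24.3% of genes passed, with Fos (1.21 ± 0.08), Fosb (1.03 ± 0.12) and Atf3 (0.84 ± 0.08) furthest apart. In KO 6 were higher, where 10.2% passed, led by Fosb (1.36 ± 0.14) and Fos (1.15 ± 0.08). Jund in WT (0.17, adjusted p = 0.024) did not pass without WT Jurkat 30 min replicate 2 or 3 or WT OVA 30 min replicate 1 (0.11 to 0.15, 0.0765 to 0.174). At 4 h 7 members passed in WT (77.5% of genes) and 8 in KO (76.4% of genes), with Fosl2 lower in each and the rest higher. The largest were Atf3 (2.42) and Maff (2.12) in WT, and Fosb (2.93) and Maff (2.43) in KO. Fos in WT was 0.12 (interval -0.039 to 0.282, adjusted p = 0.169). It passed at 0.18 to 0.19 with DESeq2, DESeq2's size factors or the stricter filter and turned to -0.26 with total counts (adjusted p = 0.00336), so its direction is set by the scaling. Fosl2 in KO (-0.15, adjusted p = 0.0486) was lost without KO Jurkat 4 h replicate 1 or 3 or KO OVA 4 h replicate 1 (-0.15 to -0.09, 0.0917 to 0.292). It was also lost with DESeq2, DESeq2's size factors, the stricter filter or only the compared groups in the fit (-0.12 to -0.09, adjusted p from 0.119 to 0.261).

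Between genotypes the largest called difference was in Fosb. KO cells held less of it than WT cells when untreated (-0.65 ± 0.11, adjusted p = 0.000233), at 30 min of OVA (-0.65 ± 0.15, 0.00474) and at 4 h of OVA (-1.29 ± 0.14, 1.61e-07), without overlap of the libraries in any of the 3 conditions. At 30 min of Jurkat cells the difference was -0.32 with overlapping libraries (adjusted p = 0.0747), and it passed without WT Jurkat 30 min replicate 2 (-0.44, 0.0265). The sign was the other way at 4 h of Jurkat cells: KO stood above WT by 0.40 ± 0.105 (adjusted p = 0.00688), with the lowest KO library (13.8 CPM) just above the highest WT library (13.4 CPM). That call did not pass without WT Jurkat 4 h replicate 2 (0.33, adjusted p = 0.0537), nor with a replicate block within genotype (0.38, 0.053). As coded, that block sets KO against WT at the fitted level of replicate 1, with a larger error. KO against WT calls lost under it, here and below, therefore cannot be set against the main fit.

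In untreated cells 3 of 9 members differed between genotypes, where 9.97% of genes did: Fosb lower, Jun higher in KO (0.26 ± 0.06, adjusted p = 0.00346, libraries apart) and Atf3 higher (0.27 ± 0.08, 0.0349). The Atf3 libraries overlapped, and the call was lost without KO untreated replicate 1 (0.12, adjusted p = 0.407) or WT untreated replicate 2 or 3 (0.26 and 0.25, 0.123 and 0.122), and when only the compared groups were fitted (0.27, 0.148). At 30 min of OVA 3 differed (12.4% of genes), with Jun (0.22 ± 0.06) and Jund (0.21 ± 0.05) higher in KO beside the lower Fosb. Without 1 library this count ran from 1 to 5. It was 1 without KO OVA 30 min replicate 2, where Jun (0.17, adjusted p = 0.173) and Jund (0.18, 0.0953) were lost, and 5 without replicate 1, where Fosl2 (0.26, 0.0243) and Fosl1 (1.43, 0.0324) also passed. Jun was also lost without KO OVA 30 min replicate 3 (0.20, adjusted p = 0.0517) or WT OVA 30 min replicate 3 (0.17, 0.0843), and Jund without WT OVA 30 min replicate 1 (0.15, 0.0887).

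At 4 h of OVA 4 members were lower in KO and none higher, where 12.6% of genes differed. Beside Fosb these were Junb (-0.34 ± 0.05, adjusted p = 5.5e-05, libraries apart), Fos (-0.27 ± 0.08, 0.0236) and Maff (-0.23 ± 0.07, 0.0241). The Fos and Maff libraries of the genotypes overlapped, and leaving out 1 library left 2 to 4 calls. Fos was lost without KO OVA 4 h replicate 2 or 3 or WT OVA 4 h replicate 1 or 2 (-0.26 to -0.22, adjusted p from 0.0764 to 0.143) and with a replicate block within genotype (-0.26, 0.0876). Maff was lost without replicate 1 or 2 of either genotype (-0.21 to -0.18, adjusted p from 0.0937 to 0.154), with total counts (-0.19, 0.0691) and with only the compared groups in the fit (-0.23, 0.0559). At 30 min of Jurkat cells Fos was lower (-0.25 ± 0.08, adjusted p = 0.0402) and Maff higher in KO (0.25 ± 0.07, 0.0191), where 9.25% of genes differed, with the libraries of each gene apart. Neither call held in every leave-out. Fos was lost without each of the 3 KO replicates in turn and without WT replicate 1 or 3 (-0.27 to -0.19, adjusted p from 0.0729 to 0.195). Maff was lost without KO replicate 1 or 3 or WT replicate 2 (0.20 to 0.22, 0.068 to 0.122). A replicate block within genotype ended both calls (adjusted p = 0.124 and 0.126), the fit without the 4 h Jurkat libraries that of Fos (0.0549), and the fit of only the compared groups that of Maff (0.0667). After 4 h of Jurkat cells Fosl2 was higher in KO (0.46 ± 0.07, adjusted p = 5.22e-05, libraries apart), as was Fosb, and Atf3 was lower (-0.32 ± 0.08, 0.00384), where 22.9% of genes differed. Fos differed by 0.13 (interval -0.033 to 0.289). The differences of Jun, Junb, Jund and Maff there lay between 0.06 and 0.09, with intervals reaching from -0.043 to 0.205. With total counts Jun (0.18, adjusted p = 0.0141), Junb (0.15, 0.0389) and Maff (0.16, 0.0468) passed there as well, which brought the count from 3 to 6. The median over all genes moved in the same direction, from -0.009 to 0.071, so the higher count is not particular to the members.

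**Figure D4:**
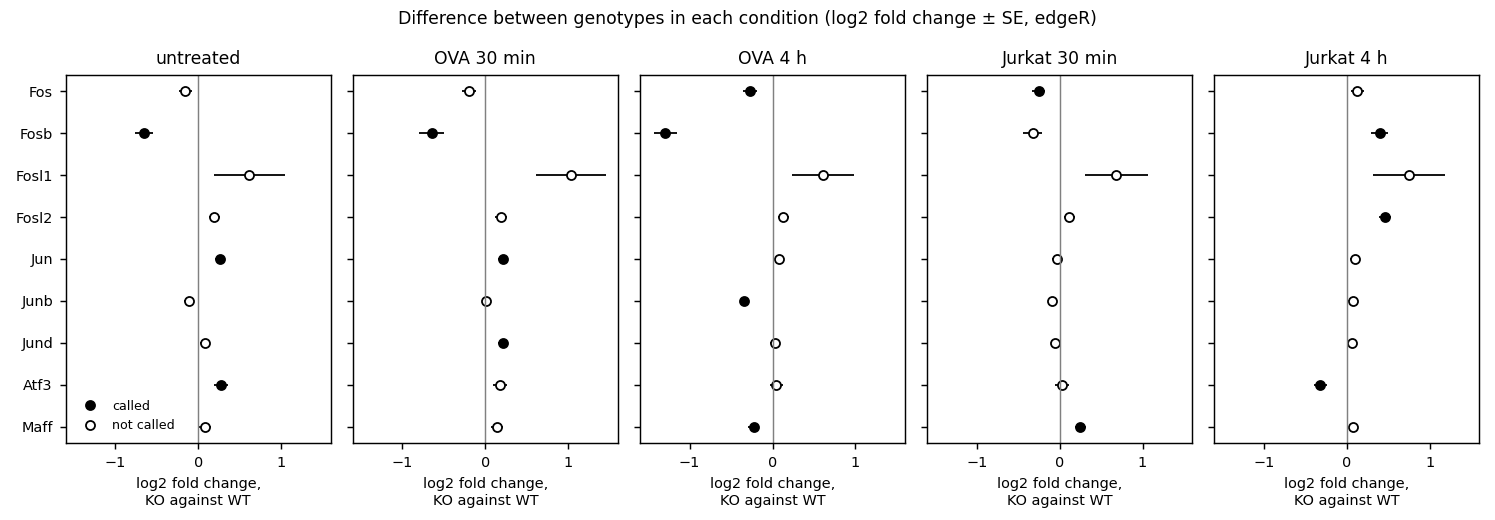
Log2 fold change of KO against WT for each gene (points, bars 1 SE, filled where the adjusted p was under 0.05) in the 5 conditions. Fosb lies left of 0 in untreated and OVA cells, at -1.29 after 4 h of OVA, and right of 0 after 4 h of Jurkat cells, at 0.40.

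Markers of other cell types also moved with genotype. The 6 basophil markers summed to 54.8 to 108 CPM over the KO libraries and 19.6 to 36.6 CPM over the WT libraries, with no overlap in any condition. The 7 stromal markers summed to 701 to 1247 CPM in KO and 493 to 910.2 CPM in WT, and the 6 markers of plasmacytoid dendritic cells to 1876 to 3162 CPM in KO and 2435 to 4182 CPM in WT, each apart within every condition. The 5 B-lineage markers were also apart in every condition, at 9.58 to 11 CPM in KO and 7.47 to 9.28 CPM in WT after 4 h of OVA. The 8 neutrophil markers were apart in all but untreated cells, at 104 to 109.7 and 128 to 139.6 CPM after 4 h of OVA. At 4 h of OVA, where Fosb, Junb, Fos and Maff were lower in KO, the basophil sum was 64 to 71.5 CPM in KO and 21.9 to 26.4 CPM in WT, the stromal sum 899.9 to 997 and 591 to 686 CPM, and the plasmacytoid sum 2169.9 to 2253 and 2549.7 to 2561 CPM. None of these markers was at 0. Their part in the genotype differences was not tested.

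Whether a treatment acted differently in the 2 genotypes was tested as the difference of the responses. No member passed for 30 min of OVA, where 0 of 14808 genes passed by edgeR (0% of genes, with 795 at an unadjusted p under 0.05) and 0 by DESeq2. No member passed for 4 h of OVA (0.0405% of genes passed, with 1098 at an unadjusted p under 0.05) or for 30 min of Jurkat cells (0.00675%, likewise 1098), by edgeR or by DESeq2. The Fosb response to 30 min of OVA differed by 0.00 between genotypes, with an interval from -0.418 to 0.425. For 4 h of OVA the Fosb difference was -0.64 (interval -1.001 to -0.278, adjusted p = 0.327). At 4 h of Jurkat cells 2 members passed, where 4.26% of genes did. The Fosb response was larger in KO by 1.05 ± 0.155 (adjusted p = 0.000248) and the Atf3 response smaller by 0.59 on the log2 scale (-0.59 ± 0.115, 0.00336), and both passed under each of the 8 other settings and each of the 12 leave-outs that were run. For Maff the difference was 0.00 (interval -0.188 to 0.186). A further comparison, added after the data were seen, set 4 h of Jurkat cells against 4 h of OVA between genotypes. There Fosb (1.69 ± 0.175, adjusted p = 3.12e-06) and Junb (0.41 ± 0.08, 0.0028) passed with the larger step in KO, where 2.53% of genes passed. Without KO OVA 4 h replicate 1 Fos also passed (0.47, adjusted p = 0.041), without WT OVA 4 h replicate 3 Fos (0.49, 0.0124) and Maff (0.39, 0.0117), without KO OVA 4 h replicate 3 Maff (0.37, 0.0373), and without KO Jurkat 4 h replicate 1 Fosl2 (0.40, 0.0344).

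Genes that work with these factors were taken from 4 lists written from general knowledge, all of whose genes were in the table and tested. Of 15 other leucine zipper partners, 2 rose and 1 fell at 30 min of Jurkat cells in each genotype, and at 4 h 11 rose and 4 fell in each. The shares over all genes at 30 min were 28.7% (WT) and 17.0% (KO), and those at 4 h 79.5% and 78.5%, so 3 of 15 at 30 min is near or below the background. Jdp2, a repressor that pairs with Jun, went from 20.8 ± 1.03 to 235 ± 6.74 CPM (SD, n = 3) in WT at 4 h (3.49 ± 0.07), and Batf, a partner of Jun that dendritic cells use with IRF factors, from 16.5 ± 1.21 to 116 ± 6.62 CPM (2.81 ± 0.07). Of 23 kinases and factors upstream of AP-1, 2 rose and 2 fell at 30 min of Jurkat cells in WT, and 3 rose in KO, again where 28.7% and 17.0% of genes passed. At 4 h 10 rose and 10 fell in WT and 9 rose and 11 fell in KO, near the shares of 79.5% and 78.5% over all genes. Mapk14, which encodes the stress kinase p38α, fell from 330.4 ± 11.9 to 107 ± 4.09 CPM in WT (-1.62 ± 0.04), and Map3k8, the kinase that feeds the ERK pathway in myeloid cells, rose from 20.1 ± 0.846 to 109 ± 1.2 CPM in KO (2.44 ± 0.06).

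Of 19 other immediate early genes, 14 rose in WT and 13 in KO at 30 min of Jurkat cells, and none fell, where 14.2% and 8.72% of genes passed higher. At 30 min of OVA 7 rose and 1 fell in WT, and 5 rose and 1 fell in KO, where 5.51% and 1.88% of genes passed higher. After 4 h of Jurkat cells 14 rose and 2 fell in WT and 16 rose and 3 fell in KO, where 79.5% and 78.5% of genes passed, among them Klf4, a zinc finger factor, which fell from 126 ± 2.64 to 9.83 ± 1.06 CPM in WT (-3.68 ± 0.06). Dusp1, a phosphatase that switches off MAP kinases, rose from 23 ± 2.26 to 165 ± 4.14 CPM in KO (2.85 ± 0.07). Egr1, an immediate early zinc finger factor, had a larger response in KO at 4 h of Jurkat cells (0.88 ± 0.13, adjusted p = 0.000271), and it was lower in KO at 4 h of OVA (30.1 ± 5.34 against 55.1 ± 5.53 CPM, -0.86 ± 0.09). Of 19 genes listed as AP-1 targets, 12 rose in WT and 7 in KO at 30 min of Jurkat cells, and 18 rose and none fell at 4 h in each genotype. Over all genes 14.2% and 8.72% passed higher at 30 min, and 38.9% and 37.5% at 4 h. Tnf rose from 10.5 ± 0.931 to 1436 ± 43.4 CPM (7.10 ± 0.11) and Ptgs2, the inducible cyclooxygenase, from 1.91 ± 0.115 to 282 ± 31.4 CPM (7.20 ± 0.19) in WT at 4 h of Jurkat cells. Plaur, the urokinase receptor, had a smaller response in KO at that time (-0.63 ± 0.10, adjusted p = 0.000326). It was 1 of 2 of the 19 with a smaller response there, and 0 had a larger one. In level, 9 of the 19 were higher and 1 lower in untreated KO than WT cells, where 9.97% of genes differed. The counts were 9 and 2 at 30 min of OVA (12.4%) and 4 and 3 at 4 h of OVA (12.6%). With Jurkat cells they were 7 and 1 at 30 min (9.25%) and 7 and 3 at 4 h (22.9%).

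For each member with at least 5 CPM in a group mean, the genes with the most similar profile were sought over the 8 groups without 4 h of Jurkat cells, by Pearson's r of log2(CPM + 0.5) group means among 9956 genes. These values share libraries and are descriptions without a test. Pearson's r does not show the size of a change. Over the 8 groups the means of Ube2j1 ran only from 97.7 to 106 CPM and those of Capns1 from 269 to 293 CPM. Those of Nfkbia ran from 87.8 to 209 CPM. The genes were picked on the 8 groups, so r over 10 groups is not an equal comparison. For Junb the closest were Pmepa1 (r = 0.991) and Psma2 (0.977), and for Maff Tubb6 (0.958) and Nfkbia (0.951), which encodes the NF-κB inhibitor IκBα. Over the 10 groups r was 0.982 to 0.996 for these 4 genes. Junb, Maff, Atf3 and Jun stood far higher in the 4 h Jurkat groups than elsewhere, so those groups largely set their r over 10 groups. Atf3 was closest to Dcun1d5 (0.976) and Pomgnt1 (0.974), with r of 0.991 and 0.988 over 10 groups, and Jun to Nelfe (0.983) and Gem (0.98), with 0.777 and 0.992. For the Fos family the likeness did not extend to 4 h of Jurkat cells. Fos went from 0.978 with Ms4a4b and 0.977 with Ube2j1 to 0.461 and 0.526, Fosb from 0.976 with Coq6 and 0.961 with Mtss1l to -0.392 and -0.419, and Fosl2 from 0.987 with Nfil3 and 0.984 with Borcs7 to -0.525 and 0.228. Jund went from 0.988 with Capns1 and 0.96 with Tsfm to 0.177 and -0.816. Among the members themselves, over the 8 groups, leaving out the low Fosl1, Jun and Atf3 were most alike (0.893), Junb and Maff next (0.882), and the lowest r was that of Fosb and Jund (-0.489).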

How the data were processed

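RNA was measured by sequencing of TruSeq RNA Library Prep Kit v2 libraries, per the labels' protocols. The authors deposited 1 table of raw read counts per gene for the 30 libraries. STAR 2.5, featureCounts 1.5.0-p1 (Subread), DESeq2 and the mm10 build are named in the submitters' processing notes, while the sources used here give neither the annotation nor the strand setting. Counts were fitted with edgeR 4.0.16 (R 4.3.3, limma 3.58.1): 1 quasi-likelihood fit over the 30 libraries with 10 group means, TMM scaling and filterByExpr, with Benjamini-Hochberg adjustment over 14808 genes and a threshold of 0.05. SE is the log2 fold change over the root of F, and intervals are 2 SE to each side. Totals of 9734778 to 51642601 counts per library set the counting error. Alternatives were DESeq2 1.42.0, other scalings and filters, a replicate block, fewer groups and leaving out each library. Pathway genes were named by smallest p with an adjusted p under 0.05, up to 4 per list and kind of comparison. The members, lists and tests were chosen with earlier results of these data known.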

Additional observations from a re-analysis of the deposited data

Results flagged for a closer look

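In 4 values the genotypes differed in the step between conditions by a test of that difference (edgeR's quasi-likelihood test, adjusted over all genes). Over all genes 4.26% passed for the response to 4 h of Jurkat cells and 2.53% for the comparison with 4 h of OVA. Both use the same 4 h Jurkat libraries, so the Fosb values below are not separate results. The Fosb response to 4 h of Jurkat cells was larger in KO by 1.05 on the log2 scale (adjusted p = 0.000248), with 5.67 ± 0.438 CPM untreated and 16 ± 1.91 CPM treated in KO against 8.92 ± 0.828 and 12.2 ± 1.18 CPM in WT (SD, n = 3). For Atf3 the difference was -0.59 (adjusted p = 0.00336), with 61.3 ± 11.1 and 335 ± 19 CPM in KO against 50.7 ± 2.8 and 418 ± 19.9 CPM in WT. Set against 4 h of OVA in place of untreated cells, a comparison added after the data were seen, the Fosb step was larger in KO by 1.69 (adjusted p = 3.12e-06) and the Junb step by 0.41 (adjusted p = 0.0028). Fosb at 4 h of OVA stood at 2.09 ± 0.169 CPM in KO against 5.16 ± 0.718 CPM in WT. Junb stood there at 212 ± 12.9 against 268 ± 19.4 CPM. The KO and WT libraries did not overlap for Fosb at either 4 h condition, for Atf3 at 4 h of Jurkat cells or for Junb at 4 h of OVA.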

How the results depend on the processing

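Of 119 called member values, 107 kept their direction and call in every other setting run and 101 in every leave-out of 1 library, and of 115 values that did not pass, 16 passed in at least 1 setting and 9 in at least 1 leave-out. No called value changed sign under an alternative that was run. A value that had not passed (0.12) turned and passed: Fos in WT, Jurkat cells against OVA at 4 h, was -0.26 with total counts. The number of members that differed between KO and WT at 4 h of Jurkat cells went from 3 to 6 with total counts. The median over all genes moved there from -0.009 to 0.071. At 30 min of Jurkat cells the number of members went from 2 to 0 with a replicate block within genotype. This number went to 1 without the 4 h Jurkat libraries or when only the compared groups were fitted. In the added comparison of Jurkat cells with OVA at 4 h between genotypes it went from 2 to 5 with total counts, only the groups compared or DESeq2, and to 4 with no filter, the stricter filter or the replicate block within genotype. Leaving out 1 library moved member counts to 0 to 2 (KO against WT, Jurkat 30 min), 2 to 4 (the added comparison), 2 to 5 (KO, OVA 30 min), 1 to 5 (KO against WT, OVA 30 min) and 2 to 4 (KO against WT, OVA 4 h). In 1 of 21 pairs of groups, KO against WT untreated, every correlation between same-numbered libraries was over 0.1 (0.111 to 0.272). Over all pairs the range was from -0.188 to 0.357. This check cannot exclude that replicate numbers pair some of the libraries, and the main fit did not pair them. A replicate block across all groups lost 0 member calls and gained 1 (Atf3 in the added comparison, adjusted p = 0.0474). The block within genotype lost 4 and gained 2. Those lost were all KO against WT: Fosb at 4 h and Fos and Maff at 30 min of Jurkat cells, and Fos at 4 h of OVA. As coded, that block sets KO against WT at the fitted level of replicate 1, with a larger error. Calls lost under it in KO against WT therefore cannot be set against the main fit. Over all genes, fitting only the compared groups took the calls from 1578 to 833 (WT, OVA 30 min), 558 to 246 (KO, OVA 30 min), 2514 to 1460 (KO, Jurkat 30 min), 1514 to 734 (KO, Jurkat cells against OVA at 30 min), 1370 to 891 (KO against WT, Jurkat 30 min) and 631 to 337 (response to Jurkat 4 h). The block within genotype took KO against WT from 1477 to 862 untreated and from 3392 to 2190 at 4 h of Jurkat cells. For the response to 4 h of OVA the 6 genes became 11 with no filter, 10 with the stricter one, 12 with that block and 25 with DESeq2, and for 30 min of Jurkat cells 1 became 7 with no filter, 22 with DESeq2 and 0 with the stricter filter, that block, only the groups compared or no 4 h Jurkat libraries. Leave-outs took the response to 30 min of Jurkat cells from 1 gene to between 0 and 81 (81 without KO Jurkat 30 min replicate 2), KO with OVA for 30 min from 558 to between 173 and 710 and KO against WT there from 1834 to between 718 and 1792 (both lowest without KO OVA 30 min replicate 2). Beyond the coding of that block, the cause of these changes was not tested. Fosl1 was not tested under the stricter filter, and its counts of 2 to 36 per library limit what can be said of it.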
